A study of Homo sapiens with 2 samples.

Results

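MHC class I antigen presentation was followed through 9 genes, HLA-B, HLA-C, HLA-E, HLA-F, B2M, TAP1, TAP2, PSMB8 and PSMB9, chosen by name. They were chosen with earlier results of these data known. Every non-control probe that the scanner files name for one of them was taken, which gave 17 of the 41000 probes on the array, and the genes are 9 of the 30484 gene names there. The cells were PC3, an established prostate cancer cell line. One group was treated with SUB1 siRNA 1 and the other with SUB1 siRNA 2, 2 duplexes against the transcriptional coactivator SUB1, and each was compared on its own dual-colour array with PC3 cells treated with Non-targeting (Non-T) siRNA. The siRNA was given again 24 h after the first transfection and RNA was taken 72 h after the first transfection. SUB1 siRNA cells were labelled with Cy5 and Non-T cells with Cy3, with 1 array per siRNA and no dye swap. An effect of the dye and an effect of the siRNA therefore cannot be told apart within an array, and a value for a single siRNA has no biological replicate. Whether both arrays carried the same Non-T extract is not given in the sources used here.

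Class I molecules show fragments of the cell's own proteins to cytotoxic T cells and natural killer cells. PSMB8 and PSMB9 replace constitutive catalytic subunits of the proteasome to form the immunoproteasome, TAP1 and TAP2 form the transporter that carries the peptides into the endoplasmic reticulum, and there they bind a heavy chain (HLA-B, HLA-C, HLA-E or HLA-F) paired with β2-microglobulin, the product of B2M. These genes are induced by interferons in many tissues, through interferon regulatory factors and NLRC5, and tumours often carry little of them.

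The measured class I genes had higher levels than Non-T cells where SUB1 siRNA 2 was used, and levels close to Non-T cells where SUB1 siRNA 1 was used. Over the 15 probes that were well above background in both channels of both arrays, which cover 8 of the genes, the median log2 ratio of siRNA-treated over Non-T cells was 0.84 for siRNA 2 (from 0.34 to 1.02) and -0.11 for siRNA 1 (from -0.32 to 0.19). The corresponding median of all 25673 probes kept was 0.015 and 0.014. The sign of the siRNA 1 ratios changed with the normalization for many of these probes, as given further on, and that of the siRNA 2 ratios did not. TAP2 was not measured well enough to be placed. The arrays read the RNA of whole cultures, so that more RNA per cell and more cells with a high level cannot be told apart. The difference between siRNAs lay in the Cy5 channel, that of the siRNA-treated cells.

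Class I genes are known to share interferon-responsive and NF-kB elements, so upstream sequences are shown for the 5 genes that held a match to either motif marked in capitals, with HLA-C beside HLA-B. The sequences are from the RefSeq promoter table of GRCh38.p14, which holds windows for 8 of the 9 genes (not HLA-E), and the 180 bases before the annotated start are printed 5′ to 3′ on the gene's strand. Capitals mark matches on either strand to GAAANNGAAA, the core of the interferon-stimulated response element, and to GGGGANTCCCC, the NF-kB site of the class I enhancer.
B2M (chr15:44711337-44711516, plus strand): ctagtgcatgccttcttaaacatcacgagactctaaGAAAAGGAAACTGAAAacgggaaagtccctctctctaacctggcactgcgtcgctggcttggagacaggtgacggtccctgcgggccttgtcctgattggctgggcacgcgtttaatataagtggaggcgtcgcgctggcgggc
TAP1 (chr6:32853705-32853884, minus strand): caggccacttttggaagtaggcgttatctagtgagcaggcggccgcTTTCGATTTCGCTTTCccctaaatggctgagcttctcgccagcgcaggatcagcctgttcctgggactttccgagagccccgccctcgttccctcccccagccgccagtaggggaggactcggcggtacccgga
TAP2 (chr6:32838740-32838919, minus strand): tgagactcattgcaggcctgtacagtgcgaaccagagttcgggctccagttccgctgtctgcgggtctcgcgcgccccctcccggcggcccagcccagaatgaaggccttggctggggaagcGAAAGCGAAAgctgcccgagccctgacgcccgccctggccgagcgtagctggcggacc
HLA-F (chr6:29723254-29723433, plus strand): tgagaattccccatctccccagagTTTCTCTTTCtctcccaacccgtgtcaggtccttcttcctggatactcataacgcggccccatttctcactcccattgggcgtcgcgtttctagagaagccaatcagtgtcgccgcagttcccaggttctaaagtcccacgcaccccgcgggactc
HLA-B (chr6:31357180-31357359, minus strand): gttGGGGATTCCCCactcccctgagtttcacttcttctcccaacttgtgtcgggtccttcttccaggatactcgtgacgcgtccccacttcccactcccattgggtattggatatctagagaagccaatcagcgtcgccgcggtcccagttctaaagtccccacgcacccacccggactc
HLA-C (chr6:31272093-31272272, minus strand): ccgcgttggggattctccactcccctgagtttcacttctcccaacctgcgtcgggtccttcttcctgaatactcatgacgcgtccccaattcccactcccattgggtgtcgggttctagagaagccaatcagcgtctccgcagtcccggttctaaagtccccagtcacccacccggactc
GAAANNGAAA was found within 250 bases before the start in 4 of the 8 genes, B2M, TAP1, TAP2 and HLA-F. It was found in 3.02% of all 35097 promoter windows of the table, a share of windows and not of genes. The 8 genes had 10 windows, since TAP1 and PSMB8 had alternative ones. In B2M and in TAP1 a pair of overlapping matches formed 1 continuous stretch, beginning 144 bases before the start of B2M and 134 bases before that of TAP1. PSMB9 is transcribed away from TAP1 from a start 488 bases off, and the TAP1 match lies 354 bases before the start of PSMB9, outside the 250 bases searched there. The NF-kB letters were found 177 bases before HLA-B, in 1 of the 8 genes and in 0.0655% of all windows. TTCNNNGAA, the core of the gamma-activated site of interferon-responsive promoters, was found in an alternative window of TAP1 and of PSMB8, which are not printed, and in 6.56% of all windows. These are matches of exact letters, so a gene without a match, such as HLA-B or HLA-C for GAAANNGAAA, may still hold a variant of the element. Binding was not measured here.

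SUB1 itself was low on both arrays. By its brightest probe siRNA 1 left 10.2% of the Non-T level and siRNA 2 left 10.4% (log2 ratios of -3.30 and -3.26), and the 3 other probes of SUB1 were lower than Non-T on either array too. Of the epithelial markers KRT8, KRT18, KRT19, EPCAM and CDH1, 5 of 5 passed the filter on dim probes. Their median log2 ratio was 0.20 (siRNA 1) and -0.14 (siRNA 2), and siRNA 2 minus siRNA 1 was below 0 for all 5, from -0.43 to -0.12, the direction opposite to the class I genes. Their part in the class I difference was not tested. Among the markers of leukocytes, which carry much class I, PTPRC and LYZ did not pass, and CD3E, CD14 and ITGAM had Cy3 intensities of 99.9 to 128 on the siRNA 1 array, where the median gene spot had 128. Their log2 ratios with siRNA 2 were 0.085 to 0.10. No culture was repeated for either siRNA, so the only error that can be given is the spread among spots of the same probe within an array. Over 209 probes spotted 10 times its median SD was 0.078 (siRNA 1 array) and 0.074 (siRNA 2 array).

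**Figure D1:**
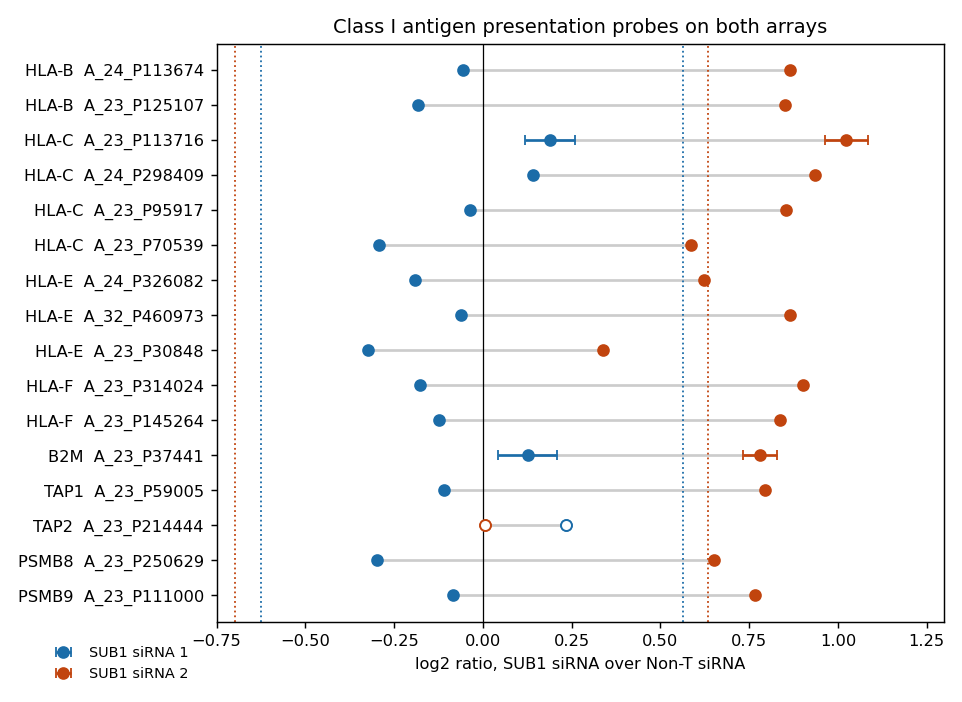
Log2 ratio of siRNA-treated over Non-T cells (x axis) for each class I probe that passed the filter (y axis), with siRNA 1 in blue and siRNA 2 in red and a grey line joining the same probe. Bars are the SD among 10 spots where a probe has them, open circles mark the TAP2 probe that was not well above background in Cy3, and dotted lines enclose the middle 95% of all probes kept on each array. Apart from TAP2, siRNA 2 lies to the right of siRNA 1 for all 15 probes, by 0.65 to 1.08.

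β2-microglobulin, the light chain common to all class I molecules, was measured by 1 probe with 10 spots on each array (B2M, A_23_P37441, NM_004048, hg18 chr15:42795065-42795124). Its normalized log2 intensity was 14.64 in Non-T and 14.77 in siRNA 1 cells on the first array, and 14.56 in Non-T and 15.34 in siRNA 2 cells on the second. The siRNA 2 cells stood above the other 3 values, which lay close together. For siRNA 1 the log2 ratio was 0.13 (SD 0.083 over its 10 spots), a fold of 1.09, and for siRNA 2 it was 0.78 (SD 0.048), a fold of 1.72. The ratios differed by 0.65 between the siRNAs. The spread among spots is an error within an array and leaves out that between cultures. For the mean of both siRNAs against 0, limma gave an adjusted p of 0.246.

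HLA-B, a classical heavy chain that presents peptides to CD8+ T cells, had 2 probes. The brighter one (A_24_P113674, NM_005514, hg18 chr6:31430895-31430954) had 14.16 in Non-T and 14.11 in siRNA 1 cells, and 14.07 in Non-T and 14.94 in siRNA 2 cells (normalized log2 intensity). Its log2 ratio was -0.056 with siRNA 1 and 0.87 with siRNA 2, a fold of 0.962 and 1.82. The other HLA-B probe (A_23_P125107) had -0.18 and 0.85. Both HLA-B probes thus gave the same picture, with siRNA 2 higher and siRNA 1 near or below 0 (limma adjusted p for the mean of 0.378 for the first probe).

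HLA-C, the other classical heavy chain here and a ligand of inhibitory receptors on natural killer cells, had 4 probes by name. The one spotted 10 times (A_23_P113716, BC002463) had 14.54 in Non-T and 14.72 in siRNA 1 cells, and 14.50 in Non-T and 15.53 in siRNA 2 cells. Its log2 ratio was 0.19 for siRNA 1 (SD 0.071 over its 10 spots) and 1.02 for siRNA 2 (SD 0.061). At 2.03-fold it was the only class I probe past the 2-fold limit that the study used, against 0.526% of all probes kept. The probe designed on the RefSeq transcript NM_002117 (A_24_P298409, hg18 chr6:31344612-31344671) had 0.14 and 0.94, and A_23_P95917 had -0.036 and 0.86. The fourth, A_23_P70539, had -0.29 and 0.59. All 4 were higher with siRNA 2 than with siRNA 1, by 0.80 to 0.89, while their signs with siRNA 1 were divided.

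The names of these probes do not separate HLA-B from HLA-C. By the coordinates in the array files, the HLA-C-named probe A_23_P95917 (hg18 chr6:31430871-31430936) overlaps the HLA-B probe A_24_P113674 by 42 bases. The HLA-C-named probe with 10 spots, A_23_P113716 (hg18 chr6:31429768-31429819), lies 1.08 kb from that HLA-B probe and 85.1 kb from the HLA-C probe A_24_P298409. The heavy chain genes are close relatives with many alleles, so a probe may bind transcripts of several of them, and which alleles PC3 carries was not measured here. Probe sequences were not used here and this was not tested, so each HLA-named value stands for heavy chain signal under the name in the files.

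HLA-E, a non-classical heavy chain that presents leader peptides of other class I chains to natural killer cells, had 3 probes, all on NM_005516. A_24_P326082 had 13.11 in Non-T and 12.91 in siRNA 1 cells, and 13.18 in Non-T and 13.80 in siRNA 2 cells, a log2 ratio of -0.19 and 0.62. A_32_P460973 had -0.061 and 0.87, and A_23_P30848 had -0.32 and 0.34. The 3 probes of this 1 transcript thus differed among themselves on the siRNA 2 array, and A_23_P30848 was the only one of the 15 probes that did not reach 1.5-fold there. Its difference between the siRNAs, 0.66, was also the smallest among the HLA probes.

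HLA-F, a non-classical heavy chain found mostly inside the cell, had 2 probes on NM_018950. A_23_P314024 had 12.29 in Non-T and 12.11 in siRNA 1 cells, and 12.34 in Non-T and 13.24 in siRNA 2 cells. Its log2 ratio was -0.18 with siRNA 1 and 0.90 with siRNA 2, and the difference of 1.08 was the largest of the 15. A_23_P145264 had -0.12 and 0.84. With siRNA 2 both ratios were above 0, and with siRNA 1 both were below 0 after loess and above 0 with centring on the median.

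TAP1, which forms the peptide transporter with TAP2, had 1 probe (A_23_P59005, NM_000593, hg18 chr6:32921188-32921247). Its normalized log2 intensity was 12.86 in Non-T and 12.75 in siRNA 1 cells, and 12.77 in Non-T and 13.57 in siRNA 2 cells. The log2 ratio was -0.11 and 0.79, with a limma adjusted p of 0.442 for the mean. TAP2 had 2 probes and neither gave a usable level. A_23_P368067 was not well above background in any channel and did not pass the filter. A_23_P214444 was not well above background in Cy3 on either array, and passed through Cy5. Its fold over Non-T came to 1.08 with siRNA 1 and 1.00 with siRNA 2 under a cautious reading of Cy3. For Non-T this took the higher of the probe's own signal and the lowest signal of any probe well above background. These folds are no firm limits, since the siRNA 2 log2 ratio of the probe was -0.033 in the authors' own ratios. The measured log2 values were 6.23 in Non-T and 6.47 in siRNA 1 cells, and 6.50 in Non-T and 6.50 in siRNA 2 cells (adjusted p = 0.563, limma). The transporter is therefore represented by 1 of its 2 chains.

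PSMB8 and PSMB9, inducible catalytic subunits of the immunoproteasome, are neighbours of TAP1 and TAP2. Their order in the RefSeq gene table is TAP2, PSMB8, TAP1, PSMB9. PSMB8 (A_23_P250629, NM_004159) had 10.69 in Non-T and 10.39 in siRNA 1 cells, and 10.66 in Non-T and 11.31 in siRNA 2 cells, a log2 ratio of -0.30 and 0.65. PSMB9 (A_23_P111000, NM_002800) had 11.28 in Non-T and 11.20 in siRNA 1 cells, and 11.40 in Non-T and 12.17 in siRNA 2 cells, a log2 ratio of -0.085 and 0.77. The limma adjusted p for the mean was 0.705 for PSMB8 and 0.424 for PSMB9. Leaving TAP2 aside, the 4 non-HLA probes had a median of 0.77 with siRNA 2 (0.65 to 0.79) and the 11 HLA probes one of 0.86 (0.34 to 1.02).

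**Figure D2:**
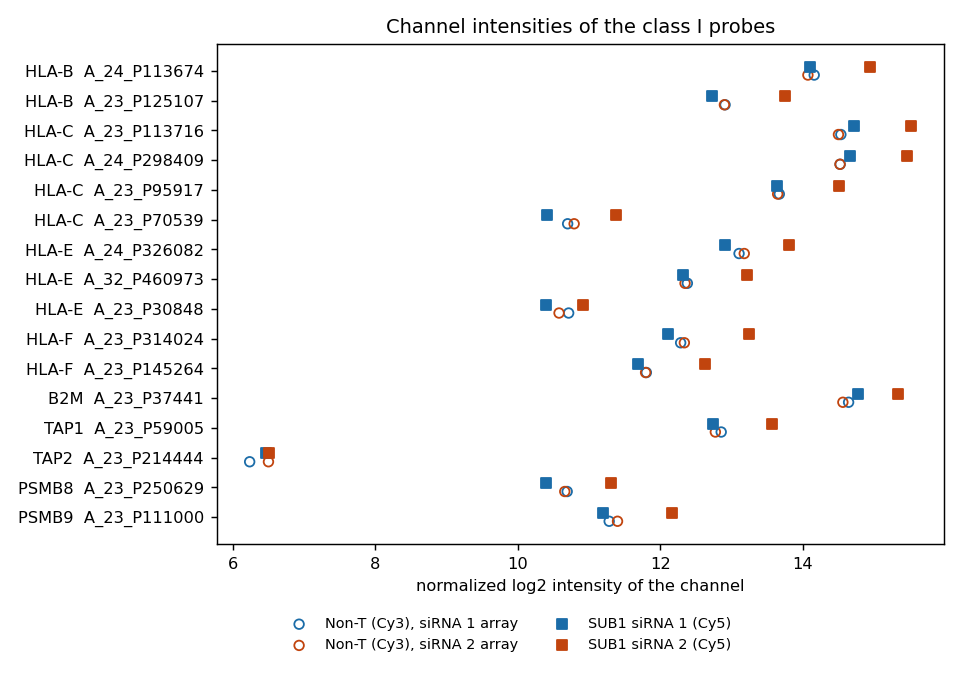
Normalized log2 intensity (x axis) of each class I probe that passed (y axis) in the 4 channels, with open circles for Non-T cells (Cy3) and squares for SUB1 siRNA cells (Cy5), blue for the siRNA 1 array and red for the siRNA 2 array. Apart from TAP2, the red square stands to the right of the other 3 symbols for each of the 15 probes, and both Non-T values lie close together (the siRNA 2 array minus the siRNA 1 array, from -0.13 to 0.12). Positions along the x axis are not comparable between probes.

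On the siRNA 1 array, 0 of the 17 probes were at least 2-fold higher and 0 were at least 2-fold lower (0.195% and 0.557% of all probes kept). At 1.5-fold 0 were higher and 0 lower (2.21% and 2.92% of all probes). Of the 15 probes above background in every channel, 3 had a ratio above 0 and 12 below, compared with 52.5% of all probes above 0. That sign rests on the loess step. With centring on the median in its place, 12 of the 15 had a ratio above 0 with siRNA 1, and the median over the 16 probes that passed was 0.17, where that of all probes was 0.11. The siRNA 1 ratios of the class I genes therefore have no settled direction.

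On the siRNA 2 array, 1 of the 17 probes was at least 2-fold higher and 0 were at least 2-fold lower (0.923% of all probes were that much lower). At 1.5-fold 14 were higher, against 3.19% of all probes, and 0 were lower, against 3.94%. The 14 are every probe above background other than A_23_P30848 of HLA-E, and cover HLA-B, HLA-C, HLA-E, HLA-F, B2M, TAP1, PSMB8 and PSMB9. With 1 array these counts have no test, and the genes were chosen with earlier results of these data known. How many probes passed 2-fold depended on the processing, from 0 with median spot signals to 11 with median centring. The share of all probes past 2-fold was not computed under those settings.

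**Figure D3:**
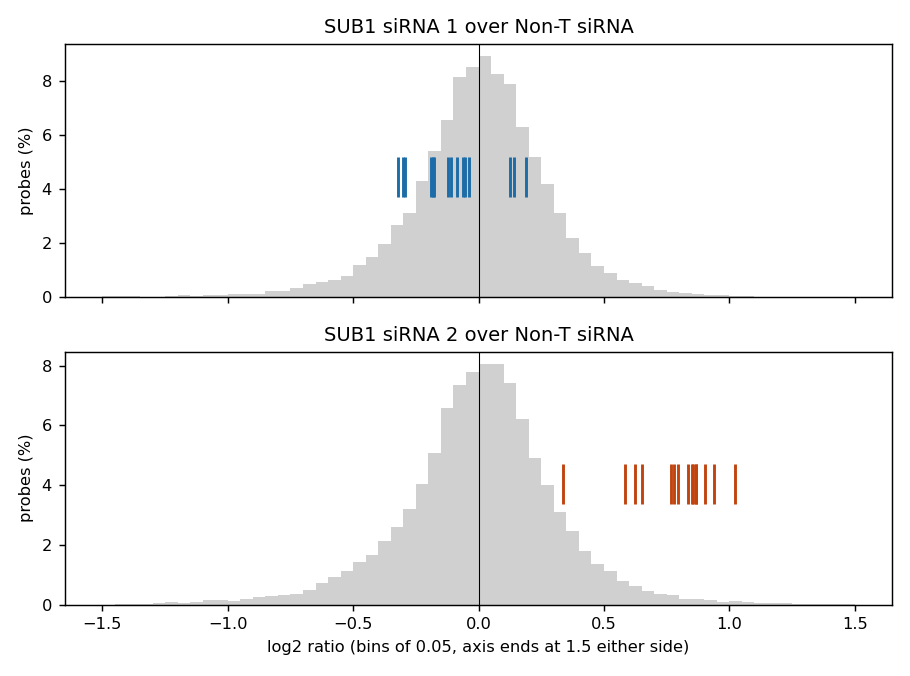
Share of all 25673 probes kept (y axis, percent) by log2 ratio of siRNA-treated over Non-T cells (x axis, bins of 0.05) in grey, for siRNA 1 above and siRNA 2 below, with the 15 class I probes that were above background in every channel as coloured ticks at an arbitrary height. The ticks lie within the body of the distribution with siRNA 1 and, apart from 1 HLA-E probe at 0.34, in its upper tail with siRNA 2.

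Set against each other, siRNA 2 exceeded siRNA 1 by a median of 0.89 over the 15 probes, from 0.65 (B2M) to 1.08 (HLA-F), and by at least 1.5-fold in all 15, compared with 2.77% of all probes kept. Between the arrays the Cy5 values of these probes differed by a median of 0.89 (0.53 to 1.13) and the Cy3 values by -0.023 (-0.13 to 0.12). Over all probes kept the Cy3 values had an SD of 0.12 and the Cy5 values of 0.30. This difference was little affected by the processing, and its median over the probes that passed ran from 0.85 to 0.92 over 10 alternatives. It is a difference between 2 arrays and was not tested.

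In limma's test of the mean ratio of both siRNAs against 0, with Benjamini-Hochberg adjustment over 25673 probes, 0 of the 16 class I probes that passed had an adjusted p under 0.05, and their adjusted p ran from 0.217 to 0.984. At an unadjusted p under 0.05 there was 1 (A_23_P113716 of HLA-C, mean log2 ratio 0.61, SE 0.22, adjusted p = 0.217), against 10.7% of all probes with such a p and a mean above 0. Over all probes 3, or 0.0117%, passed after adjustment, and each was a probe of SUB1. If both arrays carried the same Non-T extract, the test leaves out the spread of Non-T cells. Values that differ this much between the siRNAs raise its error for these genes. Apart from TAP2 their SE ran from 0.18 (B2M) to 0.27 (HLA-F), and that of all probes kept from 0.094 to 0.61.

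Other heavy chain and class I-like genes were read for comparison, by the brightest probe of each gene. Of 14 genes listed, 8 passed, with medians of 0.0015 (siRNA 1) and 0.53 (siRNA 2). At 1.5-fold or more there were 4 with siRNA 2 (3.19% of all probes kept) and 0 with siRNA 1 (2.21%). In the pairs that follow siRNA 1 comes first. HLA-G, a heavy chain normally made in the placenta, had 0.28 and 0.98 by A_24_P311926, a probe with an intensity of 11293 in Cy3 on the siRNA 1 array, while the other HLA-G probes did not pass the filter. MICB, a stress-induced ligand of the natural killer receptor NKG2D, had 0.15 and 0.63 by its brightest probe and 0.12 and 0.16 by the other. Of the others, named after their values were seen, MICA, another NKG2D ligand, had -0.14 and 0.67 by its brightest probe and 0.14 and 0.10 by the other. MR1, FCGRT and ULBP2 had -0.057, -0.12 and 0.018 with siRNA 2.

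The genes that load and trim peptides were closer to 0. Of 7 genes 6 passed, with medians of 0.064 (siRNA 1) and 0.18 (siRNA 2). At 1.5-fold or more with siRNA 2 there was 1, against 3.19% of all probes kept. This was ERAP2, an aminopeptidase that trims peptides in the endoplasmic reticulum, at 0.35 and 0.99. Its probe was dim, with an intensity of 152 in Cy3 on the siRNA 1 array, and its other probe did not pass. TAPBP, or tapasin, which bridges the transporter and the heavy chain, had 0.17 and 0.39, and CANX, the chaperone calnexin, had 0.27 and 0.24. Both are by the brightest probe. The other CANX probe had -0.088 and -0.11, and the other TAPBP probes that passed had -0.050 and -0.0075, and -0.17 and 0.22. After adjustment 0 of the 6 passed limma's test (2 at an unadjusted p under 0.05, against 21.2% of all probes kept).

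Of the proteasome genes beside PSMB8 and PSMB9, 8 of 8 passed and 0 were at 1.5-fold either way with either siRNA. Of all probes kept, 2.21% were that much higher and 2.92% lower with siRNA 1, and 3.19% and 3.94% with siRNA 2. The medians of the 8 genes were -0.083 (siRNA 1) and -0.051 (siRNA 2). PSME1 and PSME2, the subunits of the interferon-inducible PA28 activator, had 0.22 and 0.44, and 0.36 and 0.37, by the brightest probe. The other PSME1 probe had -0.072 and 0.12. PSMB5, a constitutive catalytic subunit that the immunoproteasome replaces with PSMB8, had -0.49 and -0.16. PSMB10, a further inducible catalytic subunit of the immunoproteasome, named after its values were seen, had 0.034 and 0.24. The adjusted p ran from 0.150 to 0.733 (limma, 3 of 8 at an unadjusted p under 0.05, against 21.2% of all probes kept).

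Of the regulators of class I genes 11 of 11 passed, with medians of -0.040 (siRNA 1) and 0.17 (siRNA 2). RFX5, the DNA-binding subunit of the factor RFX that sits on class I and class II promoters, had a ratio near 0 with siRNA 1 and 0.74 with siRNA 2. It was the 1 regulator past 1.5-fold with siRNA 2, against 3.19% of all probes kept. RFXANK, another subunit of RFX, had 0.56 with siRNA 1 and a ratio near 0 with siRNA 2. NFKB1, the p50 subunit of NF-kB, had -0.22 and -0.40. Of the others, chosen after their values were seen, IRF1 had -0.29 and 0.53 and NLRC5, the class I transactivator, had -0.13 and 0.032. After adjustment 0 of 11 passed limma's test (1 at an unadjusted p under 0.05, against the same 21.2%).

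The class II genes, which present peptides from outside the cell and are normally restricted to immune cells, were mostly dark. Of 11 genes 5 passed, with Cy3 intensities from 90.2 to 228 on the siRNA 1 array and log2 ratios with siRNA 2 from -0.21 to 0.23. HLA-DOB had 0.24 and 0.23, HLA-DMA had -0.14 and -0.21 and HLA-DOA had 0.11 and 0.10. Of the reference genes 10 of 10 passed, with medians of -0.068 (siRNA 1) and -0.099 (siRNA 2). Among them RPLP0 had -0.44 and -0.55, HPRT1 had -0.38 and -0.33, and ACTB had 0.75 and 0.37 by its brightest probe. The probes of ACTB were divided, and the others had 0.50 and 0.13, 0.12 and -0.25, and -0.088 and -0.35.

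**Figure D4:**
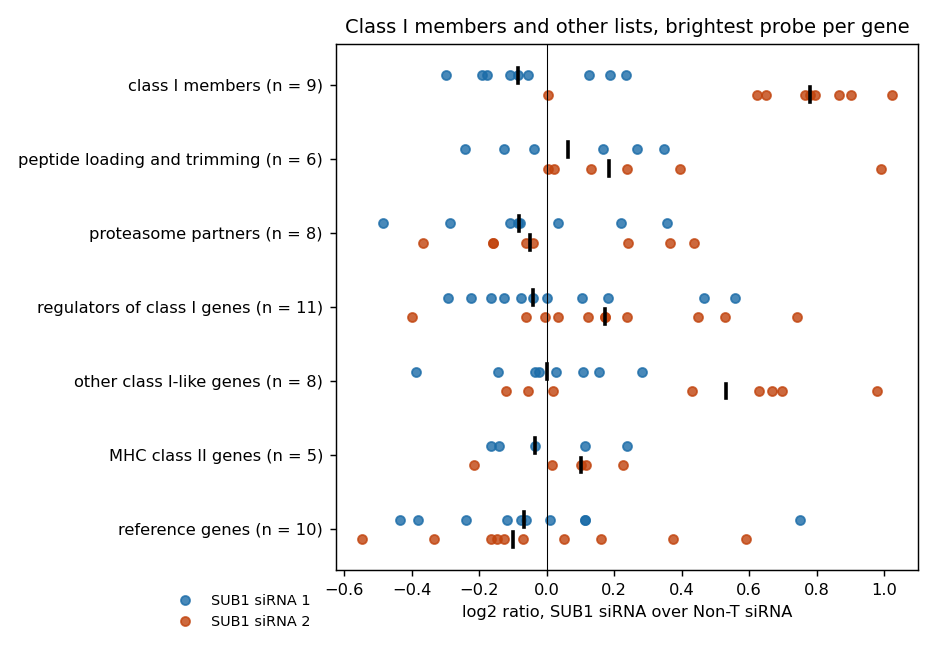
Log2 ratio of siRNA-treated over Non-T cells (x axis) of the class I members and of each list (y axis, with the number of genes that passed), 1 point per gene by its brightest probe, siRNA 1 in blue and siRNA 2 in red, black bars for the medians. The red points of the class I members, other than TAP2 at 0.0050, lie at 0.62 or more, and only single genes of the lists other than the class I-like genes reach that far.

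The genes nearest to the class I members in their pair of log2 ratios were sought by Euclidean distance from the members' median pair, -0.085 with siRNA 1 and 0.78 with siRNA 2 (brightest probe of each of the 9 genes). They were EAF1, AIM2, IFI16, LOC145757 and PTPRR, at distances of 0.014 to 0.037. Of 19206 other genes 25 lay within 0.1. The measure rests on 2 arrays.

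**Figure D5:**
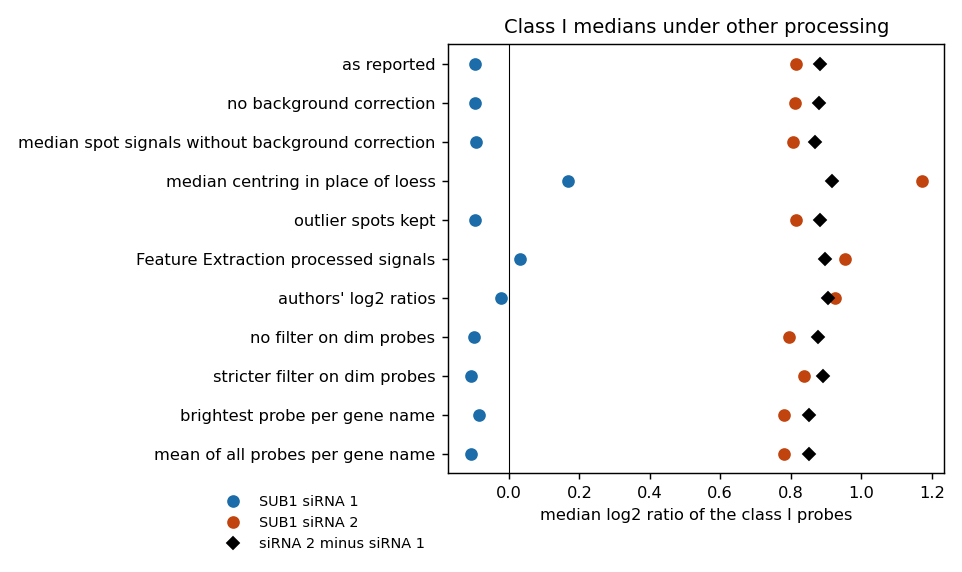
Median log2 ratio of the class I probes that passed (x axis) as reported and under 10 other ways of processing (y axis), for siRNA 1 (blue circles), siRNA 2 (red circles) and their difference (black diamonds). The diamonds lie between 0.85 and 0.92 throughout, the red circles between 0.78 and 1.17, and the blue circles on either side of 0.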

How the data were processed

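Expression was measured in PC3 cells on 2 two-colour Agilent arrays that shared a slide, each with a SUB1 siRNA (Cy5) and Non-T siRNA (Cy3). The authors deposited Feature Extraction output, which gives for every spot the intensity and local background without normalization. They also deposited log2 ratios after loess on each array. The files name the build hg18. The authors' ratios were an alternative here (Pearson r of 0.960 and 0.970 across probes with the ratios computed here). The software's own ratios and p-values were not used.

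Mean signals were corrected by normexp (offset 50), control spots dropped, and log2 ratios normalized by loess with a span of 0.3 (limma 3.58.1, R 4.3.3). Outlier spots were left out and spots of a probe averaged. Probes were kept where at least 0.5 of the spots were well above background in 1 channel or more on both arrays, which left 25673 of 41000. Channel values were scaled with Aquantile. Probes were called at 2-fold, or 1.5-fold as an alternative. The mean of both siRNAs was tested against 0 with lmFit, eBayes and Benjamini-Hochberg adjustment over all probes kept, two-sided, and the fit was tested on simulated data. The precision is limited by the number of arrays.

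The members and lists were chosen with earlier results of these data known. Named genes were all members, SUB1, any list gene at 2-fold and the 3 of each list with the largest mean ratio, and the 5 nearest genes. Some results under this rule are not reported here. Alternatives changed the background correction, normalization, filter, choice of probe and prior.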

Additional observations from a re-analysis of the deposited data

Results flagged for a closer look

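For 9 class I probes the log2 ratio was below 0 with siRNA 1 and above 0 with siRNA 2, each by more than the median SD among spots, which is 9 of the 16 that passed (56.2%). Of all 25673 probes kept, 6.49% met the same rule in this direction. The SD among spots leaves out differences between cultures. The difference (siRNA 2 minus siRNA 1) was 1.03 for A_23_P125107 of HLA-B, 0.88 for A_23_P70539 of HLA-C, 0.82 for A_24_P326082 and 0.66 for A_23_P30848 of HLA-E, and 1.08 for A_23_P314024 and 0.96 for A_23_P145264 of HLA-F. It was 0.90 for TAP1, 0.95 for PSMB8 and 0.85 for PSMB9. Among genes outside the 9, named after their values were seen, the same held for IRF1 (0.82), for HLA-H (0.82) and for A_24_P161933 of MICA (0.81). It also held, with smaller differences, for the brightest probes of RELA (0.34), HLA-DPB1 (0.28) and CALR (0.26) in the lists. With 1 array per siRNA these differences were not tested. The 12 probes checked under other processing were the 9 class I probes and those of IRF1, HLA-H and MICA. With centring on the median in place of loess 5 of the 12 kept opposite signs. With Feature Extraction's processed signals 10 did, and with the authors' log2 ratios all 12.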

How the results depend on the processing

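Over the 16 class I probes that passed, the median log2 ratio was -0.096 with siRNA 1, 0.82 with siRNA 2 and 0.88 for siRNA 2 minus siRNA 1. With centring on the median in place of loess the medians were 0.17, 1.17 and 0.92, that of the mean of both siRNAs was 0.67 (0.35 as reported), and 11 probes were at least 2-fold higher with siRNA 2. All probes kept shifted by 0.094 and 0.088 there, so that the class I median stood 0.060 and 1.07 above theirs. With Feature Extraction's processed signals the medians were 0.033 and 0.95, that of the mean 0.50, and 4 probes passed 2-fold. All probes shifted by 0.11 and 0.14, and relative to them the class I medians were -0.092 and 0.80. With the authors' log2 ratios the siRNA 2 median was 0.92, that of the mean 0.45, and 4 probes passed 2-fold. Median spot signals and the mean over probes of a gene left 0 at 2-fold, and a 1.5-fold limit gave 14. The share of all probes past 2-fold was not computed under the other processing, so these 2-fold counts have no background beside them. The median of the mean ran from -0.096 without the siRNA 2 array to 0.82 without the siRNA 1 array, with no test. Apart from TAP2, 17 of 128 probe values changed sign with siRNA 1 under the alternatives and 0 of 128 with siRNA 2. Many of the 128 could not change. The other filters and the choice of the brightest probe only select probes, and keeping outlier spots left every class I value as it was. The counts therefore understate how often the siRNA 1 sign changed where values could change. No alternative gave a class I probe an adjusted p under 0.05 (limma, lowest adjusted p from 0.0824 to 0.241, 0 to 7 probes at an unadjusted p under 0.05). The slide could not be a block, since both arrays are on 1 slide. Each ratio already pairs a SUB1 siRNA with the Non-T cells on its array. No paired analysis was possible because, beyond that pairing, each siRNA has 1 array. Signal over background limits TAP2, which had no usable Cy3 signal.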
